A study of Mus musculus with 17 samples.

Results

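Accessible chromatin around 8 genes of itaconate, nitric oxide and arginine metabolism was followed in mouse bone marrow-derived macrophages (BMDMs) before and after lipopolysaccharide (LPS). The 6 genes described were Acod1, Nos2, Ass1, Slc7a2, Odc1 and Gch1, and the others are counted in the totals only. Every peak within 50 kb of the 8 gene bodies was taken from 17 ATAC-seq peak lists. ATAC-seq uses the Tn5 transposase to cut and tag open DNA, so a peak marks accessible chromatin. The lists held 1127 peaks in these windows, which merged into 123 regions. Of these regions, 48 lay over a site that was tested, and 75 were too weak or too rare to be tested. The tested set was 49 sites of the 34186 consensus sites of the whole series. It comprised 7 sites over a promoter of one of the 8 genes, 7 over the promoter of a neighbouring gene and 35 distal sites.

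The mice were males of 6 to 12 weeks, either wild type (WT) or lacking Nur77 in the whole body (KO). Nur77, encoded by Nr4a1, is a nuclear receptor. The KO line came from C57Bl6/J mice with a CMV promoter-driven Cre, crossed to mice with a loxP-flanked Nr4a1 allele. Cre was bred out afterwards, and WT littermates served as controls. Bone marrow of both genotypes was cultured for 7 days in L929-conditioned medium. Cells were then harvested untreated (0 h), or 1 or 18 h after addition of 100 ng/ml LPS. Each group had 3 lists except WT at 1 h, which had 2, labelled replicates 1-2 and 3. Whether replicate 1-2 joins 2 samples is not given in the sources used here, and it was counted as 1 list. Nothing in the sources says that replicates came from separate animals, so p-values measure only the spread between these samples. In bulk cells, a change in how many cells open a site and a change within each cell cannot be told apart.

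Macrophages that sense LPS rewire arginine and mitochondrial metabolism. Acod1 encodes the enzyme that makes itaconate from cis-aconitate, and Nos2 encodes the inducible nitric oxide synthase, which turns arginine into nitric oxide and citrulline. Gch1 catalyses the first step towards tetrahydrobiopterin, the cofactor of nitric oxide synthases, and Ass1 recycles citrulline towards arginine. Slc7a2 imports arginine, and Odc1 converts ornithine into the polyamine putrescine.

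In GRCm38 (mm10) the gene bodies lay at chr14:103046977-103056573 (Acod1), chr11:78920787-78960254 (Nos2), chr2:31470207-31520672 (Ass1), chr8:40862396-40922308 (Slc7a2), chr12:17544794-17551505 (Odc1) and chr14:47153895-47189413 (Gch1). Gch1 lies on the minus strand and the others on the plus strand. Distances below are counted from the start of each gene to the best summit of a site, with negative values upstream.

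Sequences are shown for 8 of the sites called after LPS and for the starts of Acod1 and Gch1, as 150 bases of GRCm38 (mm10) around the summit on the strand of the gene. For the Acod1 start, the 150 bases before it are given, since its promoter peak runs on over the whole gene. Capitals mark matches, on either strand, to 9 motifs: AP-1 (TGACTCA or TGAGTCA), CRE (TGACGTCA), ISRE-like (GAAANNGAA), GAS (TTCNNNGAA), C/EBP (TTGCNNAA or TTACNNAA), PU.1 (GAGGAAGT), NBRE (AAAGGTCA, the monomer motif of Nur77), E-box (CACGTG) and NF-kB. The windows were chr14:103012671-103012820, chr14:103015989-103016138, chr14:103033539-103033688 and chr14:103046827-103046976 for Acod1, chr11:78887152-78887301 and chr11:78920606-78920755 for Nos2, chr2:31446190-31446339 for Ass1, chr12:17507189-17507338 and chr12:17510291-17510440 for Odc1, and chr14:47189417-47189566 for Gch1.

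Acod1 site at −34.2 kb: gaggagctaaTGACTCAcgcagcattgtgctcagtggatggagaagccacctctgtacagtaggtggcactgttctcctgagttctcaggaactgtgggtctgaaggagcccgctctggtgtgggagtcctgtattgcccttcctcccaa

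Acod1 site at −30.9 kb: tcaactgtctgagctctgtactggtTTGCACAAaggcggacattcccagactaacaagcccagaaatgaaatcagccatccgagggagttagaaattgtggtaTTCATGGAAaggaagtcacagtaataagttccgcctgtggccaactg

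Acod1 site at −13.4 kb: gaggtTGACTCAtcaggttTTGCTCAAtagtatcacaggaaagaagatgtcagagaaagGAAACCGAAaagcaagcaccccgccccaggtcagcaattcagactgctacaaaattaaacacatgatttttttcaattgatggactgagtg

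Acod1 start, 150 bases upstream: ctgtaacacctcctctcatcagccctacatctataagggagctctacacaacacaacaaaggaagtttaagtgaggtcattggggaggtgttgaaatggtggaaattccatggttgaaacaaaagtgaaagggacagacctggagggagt

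Nos2 site at −33.6 kb: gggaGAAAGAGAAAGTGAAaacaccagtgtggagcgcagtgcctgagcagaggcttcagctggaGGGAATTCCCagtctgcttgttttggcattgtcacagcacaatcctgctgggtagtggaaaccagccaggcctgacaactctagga

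Nos2 promoter: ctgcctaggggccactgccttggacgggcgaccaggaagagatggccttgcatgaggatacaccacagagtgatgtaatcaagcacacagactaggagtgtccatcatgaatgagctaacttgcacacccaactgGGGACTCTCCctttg

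Ass1 site at −23.9 kb: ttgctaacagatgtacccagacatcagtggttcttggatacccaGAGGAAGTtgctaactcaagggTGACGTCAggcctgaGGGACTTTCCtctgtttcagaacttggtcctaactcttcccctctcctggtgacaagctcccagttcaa

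Odc1 site at −37.5 kb: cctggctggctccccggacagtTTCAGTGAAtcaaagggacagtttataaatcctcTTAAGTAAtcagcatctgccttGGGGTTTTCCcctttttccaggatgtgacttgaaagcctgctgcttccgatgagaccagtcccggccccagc

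Odc1 site at −34.4 kb: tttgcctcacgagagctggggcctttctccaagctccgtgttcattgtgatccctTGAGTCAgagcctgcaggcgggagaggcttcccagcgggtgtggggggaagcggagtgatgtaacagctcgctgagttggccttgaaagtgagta

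Gch1 promoter: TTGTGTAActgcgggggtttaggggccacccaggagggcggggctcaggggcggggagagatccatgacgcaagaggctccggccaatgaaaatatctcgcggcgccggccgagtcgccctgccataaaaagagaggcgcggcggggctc

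The Nos2 site at −33.6 kb held an NF-kB match 10 bases before its summit and a pair of overlapping ISRE-like matches, and the Nos2 promoter held an NF-kB match between its summit and the start. The Ass1 site at −23.9 kb held CRE, PU.1 and NF-kB matches within 30 bases of its summit, the NF-kB match as GGGACTTTCC. The Odc1 site at −37.5 kb held NF-kB, GAS and C/EBP matches, and its neighbour at −34.4 kb held an AP-1 match. The Acod1 sites at −34.2 and −13.4 kb each held an AP-1 match. No motif of the 9 lay in the 150 bases before the Acod1 start, which says only that these letters are not in that window.

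In windows of 201 bases around the summit, an AP-1 match was found at 9 of the 49 sites (18.4%), against 16.2% of all consensus sites. An NF-kB match was found at 7 (14.3%), against 4.81% of all. C/EBP matches were found at 13 (26.5%) and ISRE-like matches at 6 (12.2%), against 16.96% and 7.71% of all sites. GAS matches were found at 4 sites, and CRE, PU.1 and E-box matches at 1 each, where all sites had 5.60%, 1.22%, 7.73% and 5.80%. NBRE was found at 0 of the 49, against 1.05% of all. Among the 8 sites that ranked higher after 1 h of LPS (below), 3 held an AP-1, 3 an NF-kB and 4 a C/EBP match, beside 29.7%, 17.2% and 18.9% of all sites higher at 1 h. Among the 8 that ranked higher after 18 h, these were 2, 3 and 2, beside 23.3%, 12.0% and 26.9% of all sites higher at 18 h. These shares are descriptions of letters, not of binding.

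To compare lists of unequal length, each site was given a rank score in each list. The score is the log2 ratio of 24389, the number of peaks in the shortest list, to the rank of the peak by p-value inside its list. A gain of 1 means that the rank was halved, 0 means no peak among the best 24389, and the highest possible score is 14.6. A site was called when limma gave an adjusted p-value under 0.05 over all 34186 sites and a difference of at least 1. Depth, recovered as background reads per kb, ranged from 0.382 in WT 1 h replicate 1-2 to 9.75 in WT 0 h replicate 3. The list of KO 18 h replicate 1 stood apart by its narrow peaks, with a median width of 148 bp against 365 to 901 bp in the other lists. The promoter of Nr4a1, the targeted gene, had a peak in every list at 0 and 1 h in both genotypes, 11 lists in all, so this peak does not check the genotype labels there. At 18 h it had one in 3 of 3 WT and 0 of 3 KO full lists, but the full KO lists were shorter. At equal length only 1 WT list kept the peak, and 0 of the KO lists had it. Of 8 macrophage markers, 6 had a promoter peak in all 17 lists at equal length and the least frequent had one in 15, whereas 4 of 4 T cell and 4 of 4 B cell markers had none. Among the neutrophil and fibroblast markers, 2 of 4 each had none, S100a8 had one in 15 lists and Col1a1 in 14.

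After 1 h of LPS, 8 of the 49 sites (16.3%) ranked higher than at 0 h and 1 ranked lower, as the mean of both genotypes. Over all consensus sites, 5.21% were higher and 3.33% lower. The 8 sites lay at Acod1 (3), Nos2 (2), Odc1 (2) and Ass1 (1). After 18 h, 8 sites again ranked higher and 1 lower, against 2.91% and 2.88% of all sites. These 8 lay at Nos2 (4), Acod1 (2) and Ass1 (2). The median difference over the 49 sites was 0.09 at 1 h and 0.18 at 18 h, beside −0.02 and 0.00 over all sites. Of the tested sites, 20 of the 49 (40.8%) scored 0 in all 0 h lists, against 18.9% of all sites. These sites could not fall, so the medians and the split into higher and lower are descriptions only. Counted in either direction, 18.4% of the 49 sites were called at each time against 8.54% and 5.79% of all sites, but with ranks taken over the full lists without a cap the shares were 18.4% against 21.4% at 1 h and 16.3% against 14.6% at 18 h. Of the sites called higher, 2 of 8 at 1 h and 3 of 8 at 18 h scored 0 in all 0 h lists, as did 19.2% and 19.0% of all sites called higher. Such sites could be tested only through the LPS lists, which fixed their direction, and their 0 h scores had no spread, so their differences are given below as a description with no p-value. Both comparisons use the same 0 h lists. Side by side, 3 sites were higher at both times, 5 at 1 h alone and 5 at 18 h alone by this rule. In the heat map of sites and lists, the Acod1, Nos2 and Odc1 rows show these steps.

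**Figure D1:**
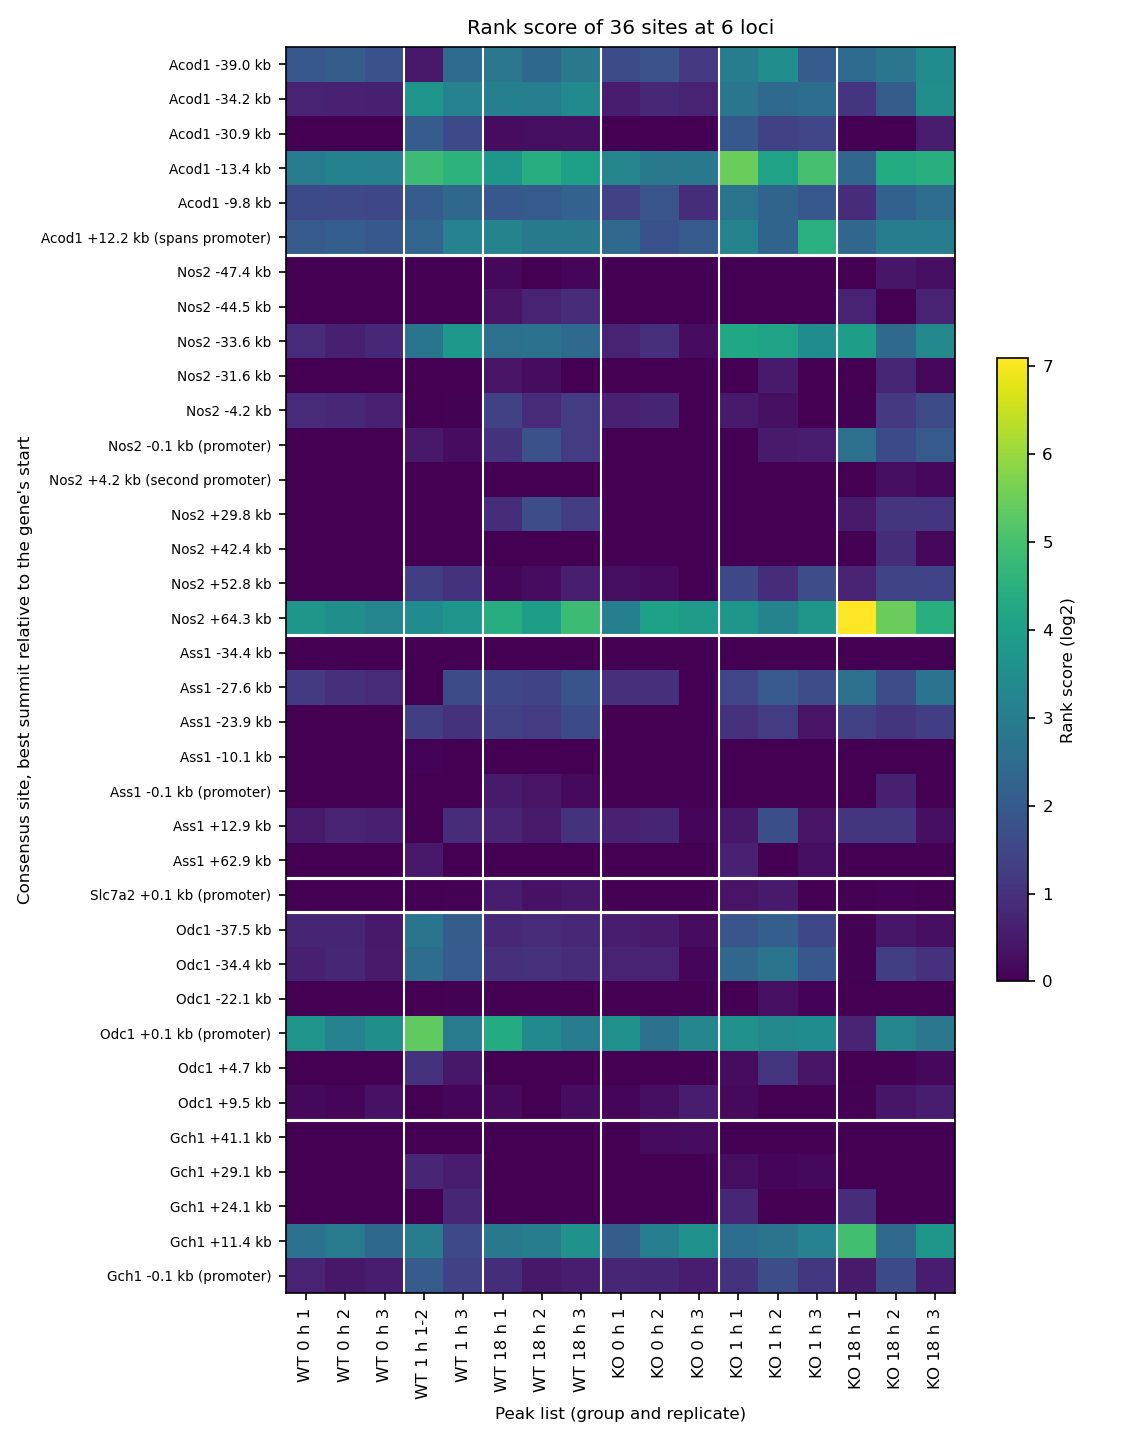
Rank score (log2, colour) of 36 sites (rows, labelled with the distance of the best summit from the start of the gene) in the 17 lists (columns, by group and replicate). The Nos2 promoter row is at 0 in all 0 h lists and reaches 2.61 at 18 h, and the Odc1 rows at −37.5 and −34.4 kb are brightest at 1 h.

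Every 1 h list scored above every 0 h list at 12 of the 49 sites, against 8.58% of all sites. Every 18 h list did so at 7 of the 49, against 5.53% of all. A site at 0 in all 0 h lists could lie only level with them or above. Within WT, 8 sites were higher at 1 h and 5 at 18 h, where 7.84% and 4.03% of all sites were called in either direction. The WT 1 h lists had 0.382 and 1.61 background reads per kb, against 5.11 to 9.75 in the WT 0 h lists. Depth and LPS therefore cannot be told apart in the WT comparison at 1 h. Within KO, 7 sites were higher at 1 h, and 7 were higher and 1 lower at 18 h, where 7.49% and 7.41% of all sites were called. The plot of both LPS differences sets the sites with high values at both times apart from those that moved at 1 time.

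**Figure D2:**
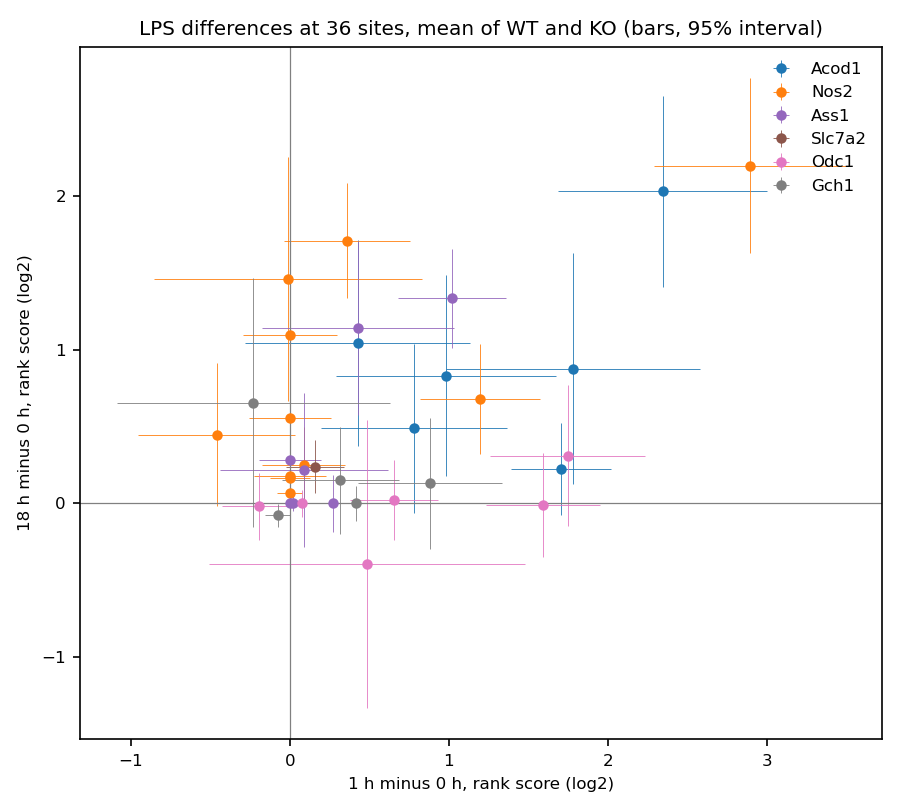
Difference in rank score (log2) at 18 h against that at 1 h, each from 0 h and as the mean of WT and KO, for 36 sites, coloured by gene. Bars are 95% intervals; both axes share the 0 h lists. The Nos2 site at −33.6 kb (2.89 and 2.20) and the Acod1 site at −34.2 kb (2.35 and 2.03) lie at the upper right.

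At Acod1, the site at −34.2 kb (chr14:103011589-103014187, intergenic) ranked 13993 to 16801 in the lists without LPS and rose at both times. Without LPS its rank score was 0.68, 0.66 and 0.61 in WT and 0.54, 0.80 and 0.67 in KO. At 1 h it was 3.69 and 3.14 in WT and 2.79, 2.43 and 2.57 in KO. At 18 h it was 3.07, 3.04 and 3.36 in WT and 1.08, 2.09 and 3.50 in KO, the lowest of these in the narrow-peak list. No LPS list overlapped the 0 h lists. The difference was 2.35 ± 0.31 (SE) at 1 h (adjusted p = 2.6e-05) and 2.03 ± 0.29 at 18 h (adjusted p = 9.15e-05).

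The neighbouring site at −30.9 kb (chr14:103014757-103016455) scored high at 1 h and low at 18 h. It scored 0 in all 6 of the 0 h lists. At 1 h it scored 2.06 and 1.55 in WT and 1.96, 1.38 and 1.47 in KO. By 18 h the scores were 0.23, 0.26 and 0.30 in WT and 0, 0 and 0.54 in KO. The fitted difference was 1.71 at 1 h and 0.22 at 18 h, described without a test. Over the best 10000 peaks the 1 h difference was 0.42.

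The site at −13.4 kb (chr14:103033031-103034812), which holds the AP-1, C/EBP and ISRE-like matches shown above, was already strong without LPS. It scored 2.83 to 3.23 in the 0 h lists, 4.10 to 5.48 in the 1 h lists and 2.33 to 4.48 in the 18 h lists. The 1 h lists did not overlap the 0 h lists, and the difference was 1.78 ± 0.38 (adjusted p = 0.00187). At 18 h it was 0.88 ± 0.36 (adjusted p = 0.0856). A further site at −39.0 kb was called at 18 h only, with a difference of 1.04 ± 0.32 (adjusted p = 0.023). Ranked over the full lists, the difference was 0.71 and not called (adjusted p = 0.15). The adjusted p rose to 0.0514 to 0.0595 when WT 0 h replicate 3, WT 18 h replicate 1 or 3, KO 0 h replicate 3 or KO 18 h replicate 3 was left out.

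At the Acod1 promoter and gene body, the extent of the peaks changed. Within 1 kb of the start, a summit was found in 1 of 6 lists at 0 h and in 11 of 11 LPS lists. Ranked over all summits, this promoter scored 0 in all 6 of the 0 h lists. It scored 1.49 and 1.42 in WT and 2.61, 1.30 and 1.55 in KO at 1 h. The 18 h scores were 2.37, 2.64 and 2.01 in WT and 2.09, 2.61 and 1.74 in KO. With the promoters of 10990 protein-coding genes fitted in the same way, a measure added after the data were seen, the fitted difference was 1.64 at 1 h and 2.25 at 18 h, again with all 0 h lists at 0. Of these promoters, 2.51% were higher at 1 h and 1.6% at 18 h.

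The peaks then ran on over the gene. In lists of equal length (the best 24389 peaks of each), 2.12% to 7.24% of the 9.6 kb Acod1 gene body lay under peaks at 0 h, and 16.0% to 61.6% at 1 h. At 18 h the share was 100% in all 3 WT lists and 12.0%, 82.7% and 71.7% in the KO lists. Every 1 h and every 18 h list lay above every 0 h list, which held for 0.814% and 0.442% of 12898 protein-coding genes. The merged consensus site there was 15577 bp wide (chr14:103046214-103061790), held 2 or 3 summits in the 0 h lists and 9 to 27 in the LPS lists, and took its best summit at +12.2 kb, beyond the 3′ end of the gene, in most lists. That end was accessible without LPS, and the score of the merged site therefore differed by only 0.98 ± 0.33 at 1 h (adjusted p = 0.0329) and was not called. With depth as a covariate it was 1.33, and without WT 1 h replicate 1-2, KO 0 h replicate 1 or KO 1 h replicate 1 or 2 it was 1.02 to 1.24, each called.

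WT exceeded KO in every list at 18 h in the share of the Acod1 gene body under peaks, but so it did for 60.9% of genes. The KO 18 h lists were shallower, at 1.10 to 1.76 background reads per kb against 4.62 to 8.38 in WT 18 h, and 1 of them held the narrow peaks. The part of depth in this difference was not tested.

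**Figure D3:**
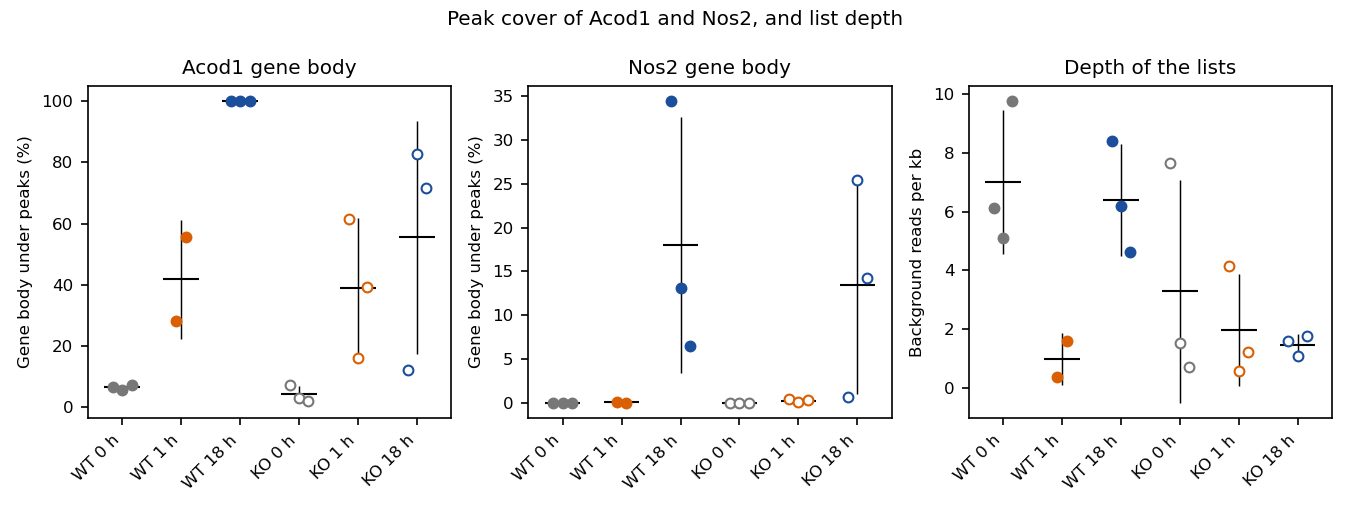
Share of the Acod1 and the Nos2 gene body under peaks of the equal-length lists (%) and depth of the lists (background reads per kb), by group. Points are lists (filled WT, open KO), lines are means and bars SD. Acod1 goes from at most 7.24% at 0 h to 100% in WT at 18 h; Nos2 is at 0 in all 0 h lists and at most 0.370% at 1 h.

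At Nos2, an upstream site was called at both times, and the promoter had its highest scores at 18 h. The site at −33.6 kb (chr11:78886511-78887952, intergenic) scored 0.89, 0.64 and 0.81 in WT and 0.67, 0.99 and 0.24 in KO at 0 h. After 1 h its scores were 2.76 and 3.78 in WT and 4.24, 4.10 and 3.44 in KO. After 18 h its scores were 2.62, 2.66 and 2.41 in WT and 3.94, 2.44 and 3.34 in KO. No LPS list overlapped the 0 h lists. The differences, 2.89 ± 0.29 at 1 h (adjusted p = 1.1e-06) and 2.20 ± 0.27 at 18 h (adjusted p = 1.92e-05), were those of the sequence with the NF-kB and ISRE-like matches.

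The Nos2 promoter (chr11:78920269-78921275, summit 107 bp before the start) scored 0 in all 6 of the 0 h lists. The scores at 1 h were 0.49 and 0.22 in WT and 0, 0.52 and 0.56 in KO. The scores at 18 h were 1.04, 1.76 and 1.26 in WT and 2.61, 1.58 and 2.00 in KO, above every 0 h and 1 h list. The fitted difference from the 0 h lists was 0.36 at 1 h and 1.71 at 18 h. A second Nos2 start, near a site at +4.2 kb, had a peak at equal length in 2 lists only.

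Inside the gene, a 15053 bp site with its best summit at +29.8 kb, in an intron (chr11:78947142-78962194), had peaks at equal length at 18 h only. It scored 0 in all lists at 0 and 1 h, 0.92, 1.68 and 1.30 in WT at 18 h and 0.50, 1.05 and 1.11 in KO at 18 h. The fitted difference was 1.09, and without WT 18 h replicate 2 it was 0.999, just under the size limit. With the lists cut to their best 10000 peaks it was 0.07, and that of the promoter 0.47. The share of the 39.5 kb gene body under these peaks was 0 in all 0 h lists and at most 0.370% at 1 h. At 18 h it was 34.5%, 13.1% and 6.42% in WT and 0.590%, 25.5% and 14.2% in KO. The lowest share was in the narrow-peak list, and the 18 h lists of both genotypes overlapped.

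Both further Nos2 sites that were called lay towards Lgals9, which encodes galectin-9. The site at +52.8 kb, in an intron of Lgals9, rose at 1 h by 1.20 ± 0.18 (adjusted p = 8.82e-05) from 0 to 0.26 at 0 h to 0.89 to 1.69 at 1 h. This rise was not called when ranked over the full lists (0.93) or over the best 10000 peaks (0.11). At 18 h the site scored 0.13 to 0.60 in WT and 0.71 to 1.46 in KO. The 18 h difference of 0.68 ± 0.17 (adjusted p = 0.00738) was under the size limit. Within KO it was 1.04 ± 0.24 and called (adjusted p = 0.00759), and within WT 0.32 ± 0.24 and not called (adjusted p = 0.562). KO against WT at 18 h was 0.88 and not called (adjusted p = 0.116). The Lgals9 promoter at +64.3 kb rose at 18 h by 1.46 ± 0.38 (adjusted p = 0.00901), from 3.07 to 4.06 at 0 h to 3.96 to 7.09 at 18 h. Its lists overlapped between 0 and 18 h, and the top value was in the narrow-peak list. Ranked over the full lists, the difference was 1.12 and not called (adjusted p = 0.0532).

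**Figure D4:**
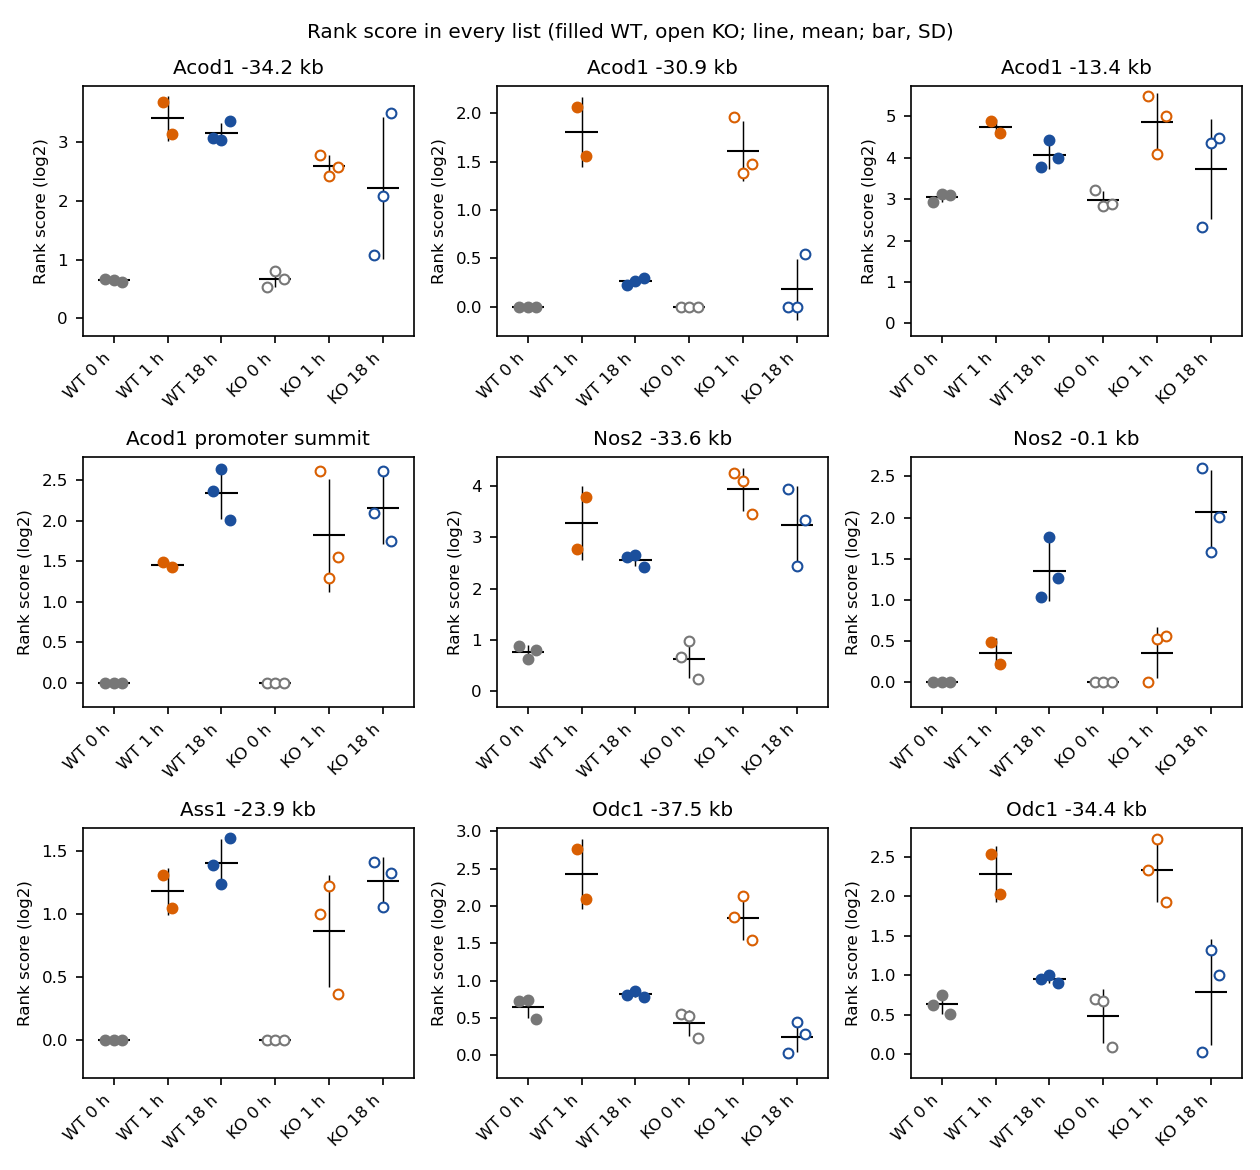
Rank score (log2) in every list at 9 sites, by group. Points are lists (filled WT, open KO), lines are means and bars SD; the Acod1 promoter is scored by its best summit. Acod1 at −34.2 kb, Nos2 at −33.6 kb and Ass1 at −23.9 kb are high at 1 and 18 h, Acod1 at −30.9 kb and both Odc1 sites at 1 h, and the Nos2 promoter at 18 h.

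At Ass1, 2 of the 6 distal sites scored over 1 higher after LPS and the promoter did not. The site at −23.9 kb (chr2:31445216-31447986), in an intron of the neighbouring gene Hmcn2, scored 0 in all 6 of the 0 h lists. The 1 h scores were 1.31 and 1.05 in WT and 1.00, 1.22 and 0.37 in KO. After 18 h they were 1.38, 1.23 and 1.60 in WT and 1.41, 1.05 and 1.32 in KO. With all 0 h lists at 0, the fitted difference was 1.02 at 1 h and 1.33 at 18 h. The value at 1 h lies near the size limit and was 0.93 to 0.99 without WT 1 h replicate 1-2, KO 1 h replicate 1 or KO 1 h replicate 2, and 0.88 over the full lists. Over the best 10000 peaks the differences were 0.01 and 0.10.

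The Ass1 site at −27.6 kb, in the same intron stretch, was called at 18 h only. It scored 0 to 1.19 at 0 h and 1.47 to 2.72 at 18 h, and the difference was 1.14 ± 0.27 (adjusted p = 0.00488), or 0.98 and not called without KO 0 h replicate 3. Nor was it called when ranked over the full lists (0.83) or over the best 10000 peaks (0.69). The Ass1 promoter had a peak at equal length in 4 lists, all at 18 h, with scores of 0.51, 0.38 and 0.19 in WT and 0, 0.61 and 0 in KO. Its fitted difference of 0.28 was under the size limit.

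The Odc1 locus was called at 1 h only. Its distal sites at −37.5 kb (chr12:17505890-17507783) and −34.4 kb (chr12:17509875-17511567) rose at 1 h and scored near the 0 h range at 18 h. The first scored 0.24 to 0.74 at 0 h, 2.76 and 2.10 in WT and 1.86, 2.13 and 1.54 in KO at 1 h, and 0.03 to 0.86 at 18 h. The second scored 0.09 to 0.76 at 0 h, 2.54 and 2.03 in WT and 2.34, 2.73 and 1.92 in KO at 1 h, and 0.03 to 1.32 at 18 h. The 1 h lists of both sites lay above every 0 h and every 18 h list.

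The 1 h differences were 1.59 ± 0.17 (adjusted p = 2.43e-06) and 1.75 ± 0.23 (adjusted p = 2.37e-05). Over the best 10000 peaks the first was 0.85, under the size limit. At 18 h they were −0.01 ± 0.16 (adjusted p = 1) and 0.31 ± 0.22 (adjusted p = 0.335). The Odc1 promoter was strong in each group, with scores of 3.14 to 3.70 in WT and 2.68 to 3.55 in KO at 0 h. At 1 h it scored 5.36 and 2.89 in WT and 3.34 to 3.58 in KO, and at 18 h it scored 2.97 to 4.35 in WT and 0.71, 3.24 and 2.81 in KO. Its difference at 1 h was 0.49 ± 0.47 (adjusted p = 0.492) and turned to −0.13 without the shallow list WT 1 h replicate 1-2. A small site inside Odc1 at +4.7 kb scored 0 at 0 h and 0.24 to 1.06 at 1 h, a fitted difference of 0.66 that was under the size limit.

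The Gch1 promoter (chr14:47187263-47189811) scored 0.69, 0.46 and 0.57 in WT and 0.77, 0.74 and 0.54 in KO at 0 h. At 1 h it scored 2.06 and 1.37 in WT and 1.05, 1.70 and 1.16 in KO, all above 0 h. At 18 h it scored 0.92, 0.45 and 0.56 in WT and 0.50, 1.58 and 0.54 in KO. In KO 18 h replicates 1 and 3 no summit lay within 1 kb of the start, so 0.50 and 0.54 come from elsewhere in this 2549 bp site. The 1 h difference of 0.88 ± 0.21 passed the test (adjusted p = 0.0053) but was under the size limit. Without WT 1 h replicate 3 it was 1.05 and called (adjusted p = 0.00381). Within WT the difference of 1.14 ± 0.32 was called (adjusted p = 0.0237), and within KO that of 0.62 ± 0.29 was not (adjusted p = 0.159). The responses differed by −0.51 (95% interval −1.42 to 0.39), which was not called. An intronic Gch1 site at +11.4 kb, with AP-1 and C/EBP matches, had a peak in all 17 lists with scores of 1.55 to 4.93 and was called in no comparison.

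Slc7a2 had a single tested site, its promoter, which scored 0 at 0 h and at most 0.57 in any list.

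By level, the promoters of the 6 genes fell into 3 tiers in the unstimulated cells. Odc1 was highest, Gch1 was lower in all 0 h lists, and Nos2, Ass1, Slc7a2 and, by summit, Acod1 were at 0 in all 6 lists. At 18 h the summit scores of Acod1, 1.74 to 2.64, and of Nos2, 0.93 to 2.52, overlapped. Those of Odc1 were 2.78 to 4.35 in 5 lists, above every Acod1 score, and 0.59 in the narrow-peak list.

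Other genes of these pathways were examined at their promoters. Of 30 genes, 29 had a promoter site, all but Ddah1. At 1 h, 0 were higher and 2 lower, where 8.46% of all promoter sites were called in either direction. One of them was Idh2, the mitochondrial NADP-dependent isocitrate dehydrogenase, at −1.46 ± 0.32 (adjusted p = 0.00248). At 18 h, 0 were higher and 2 lower, against 5.71% of all. These were Idh2 at −1.20 ± 0.30 (adjusted p = 0.00799) and Glul, the glutamine synthetase, at −1.42 ± 0.29 (adjusted p = 0.00169). The Idh2 promoter scored 2.02 to 3.33 in WT and 1.55 to 3.01 in KO at 0 h, 0.84 to 1.04 and 0.64 to 1.32 at 1 h, and 1.41 to 2.05 and 0 to 1.46 at 18 h. None of the 9 polyamine genes and none of the 7 tested genes of tetrahydrobiopterin and nitric oxide was called at either time, their median differences being −0.24 and −0.60 at 1 h and −0.33 and −0.01 at 18 h.

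The genotypes were then compared. None of the 49 sites was called between KO and WT over the 3 times, against 0.114% of all sites. By limma, 5 of the 49 (10.2%) had an unadjusted p under 0.05, beside 9.43% of all sites. The exact permutation test called 0 of all 34186 sites, its smallest adjusted p being 0.115, so its 0 at the 49 sites adds nothing. At single times, 0 of the 49 were called at 0, 1 and 18 h, where 0.0673%, 0.325% and 0.196% of all sites were. The KO 18 h lists had 1.10 to 1.76 background reads per kb and the WT 18 h lists 4.62 to 8.38. Depth and genotype therefore cannot be told apart at 18 h. The sites with an unadjusted p under 0.05 by limma numbered 2 (4.08%), 5 (10.2%) and 10 (20.4%) at 0, 1 and 18 h, beside 4.09%, 10.8% and 13.0% of all sites. Of the 10 at 18 h, 6 were among the 11 sites of the Nos2 locus, which are neighbours and not independent. Those 6 were higher in KO except the site at +29.8 kb, which was lower.

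The LPS responses of KO and WT also did not differ by the test at any of the 49 sites. At 1 h, 0.0263% of all sites were called and at 18 h 0.0%. With an unadjusted p under 0.05 there were 4 member sites at each time (8.16%), beside 6.93% and 6.35% of all sites. The exact permutation test called 0 of all sites at either time, with smallest adjusted p-values of 0.934 and 0.937, and could not inform on the 49. Without WT 1 h replicate 3, which leaves the shallowest list as the only WT 1 h list, 2 of the 49 sites (4.08%) were called at 1 h, while the calls over all sites rose to 570 (1.67%). The 2 were the Acod1 site at −39.0 kb (2.75 ± 0.61, adjusted p = 0.0191) and the Ass1 site at −27.6 kb (2.08 ± 0.54, adjusted p = 0.0459), where that shallow list scored 0.49 and 0. This fit assumes that the lone list varies like the other groups.

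The intervals show what size of genotype effect these lists could miss, and at sites with 0 in all 0 h lists they may be too narrow. At the Nos2 promoter, KO minus WT over the 3 times was 0.24 (95% interval −0.08 to 0.56), and the 18 h response differed by 0.71 (−0.04 to 1.46). At the Nos2 site at −33.6 kb the difference was 0.40 (−0.09 to 0.88). At the Acod1 site at −34.2 kb it was −0.58 (−1.11 to −0.05, adjusted p = 0.479), and at the Acod1 promoter by summit it was 0.06 (−0.34 to 0.45). At the Odc1 site at −37.5 kb it was −0.45 (−0.74 to −0.17, adjusted p = 0.227), and at the Ass1 site at −23.9 kb −0.15 (−0.42 to 0.12). For the differences between LPS responses, the intervals spanned more than 1 at each of the 13 sites in the plot of genotype differences.

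**Figure D5:**
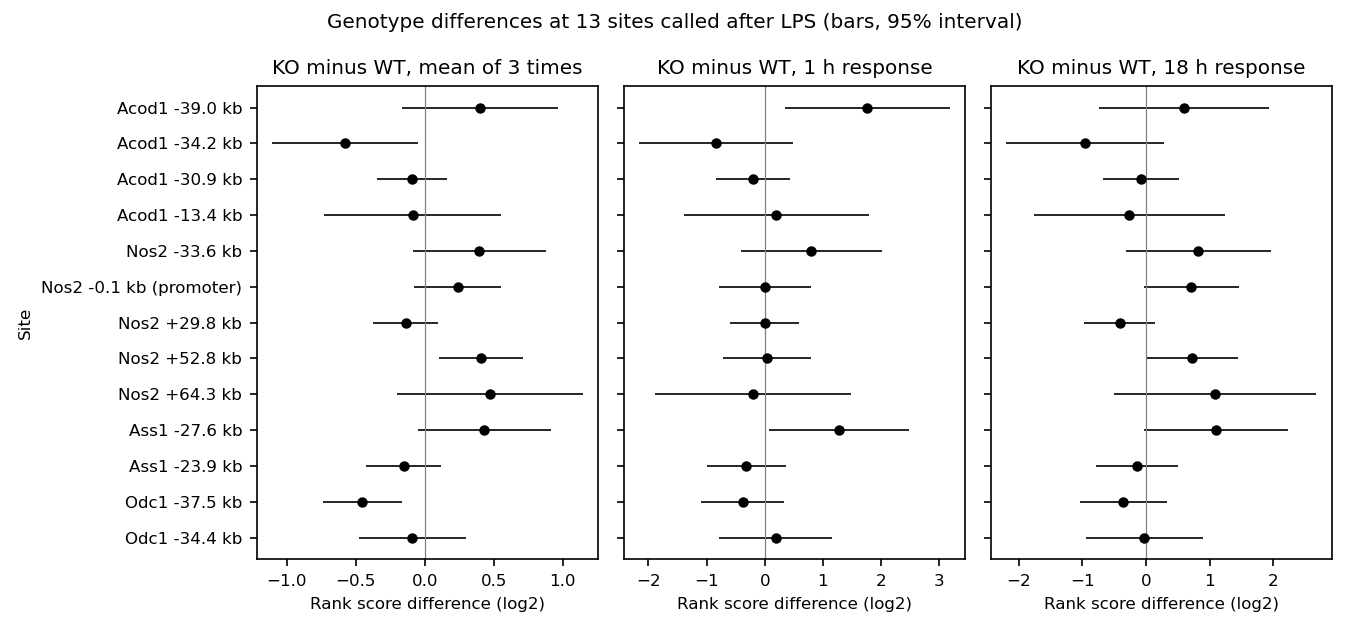
KO minus WT difference in rank score (log2) at 13 of the 15 sites called after LPS: the mean over 0, 1 and 18 h, the difference between the 1 h responses, and that between the 18 h responses. Points are estimates from the fit over all sites and bars 95% intervals; no site passed the adjusted threshold in any panel.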

How the data were processed

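The authors trimmed reads with cutadapt (version 2.6 in the submitters' processing notes), mapped them to GRCm38 (mm10), processed them with snakeATAC and called peaks in each sample separately. The peak caller is not given in the sources used here. The deposited lists hold, for each peak summit, an integer score, a ratio (fold over background), and p-values and q-values as −log10. The authors compared counts with DiffBind (version 3.0.15); no counts per site were used here. The −log10 p-value of a deposited list depends on depth and served only to rank peaks inside that list. Background reads per kb, a relative measure of depth, were solved from the deposited fold and p-value of each peak.

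Peaks sharing an interval were collapsed to their best summit. The best 24389 intervals of each list (ties broken with seed 1) were merged where they shared at least 1 bp, and sites seen in at least 2 lists were kept. limma 3.58.1 (R 4.3.3; empirical Bayes with trend and robust) was fitted to the rank scores of all 34186 sites with 6 group means and Benjamini-Hochberg adjustment, and was tested on simulated data. Promoters were the 1 kb either side of a protein-coding start in GENCODE M21 annotation. Peaks, motif letters and gene-body shares were computed with Python 3.11.15, and sequence was read from RefSeq GRCm38.p6. For 1 h and 18 h against 0 h, the smallest p the exact permutation tests gave was 0.005.

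The genes and lists were chosen with earlier results of these data known. At each gene, the promoter site and the 2 distal sites with the largest called difference were named, or the strongest distal site where none was called. The other called sites, and 1 at Odc1 under the size limit, were named after their values were seen. Some genes and sites are counted in the totals but not reported here. Alternatives were another cap, no cap, permutation, a depth covariate, summits inside the site, no size limit, at least 5 lists, a replicate block and leaving out each list. The promoter summits and the gene-body shares were added after the data were seen. Samples of the same replicate number showed little shared deviation, which cannot exclude a pairing.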

Additional observations from a re-analysis of the deposited data

How the results depend on the processing

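The called sites were 9 at 1 h and 9 at 18 h, both directions together, and 0 in each of the 3 genotype comparisons. With a cap at the 10000 best peaks, which left 24 of the 49 sites to test, 5 sites were called at 1 h and 5 at 18 h (20.8% of those tested, against 9.73% and 5.44% of all sites tested). With no limit on the size of the difference, 17 were called at each time (34.7%, against 28.1% and 23.6% of all sites). Permutation, the depth covariate, no cap, summits inside the site and at least 5 lists gave 8 to 9 sites at both times. With the depth covariate 7 of the 9 sites at 1 h were called: the Ass1 site at −23.9 kb (0.97) and a site not reported here were lost, and the site spanning the Acod1 promoter (1.33) was gained. Permutation lost 1 site at 1 h, also not reported here. With no cap, however, 21.4% and 14.6% of all sites were called, so the higher share of the 49 sites seen in the capped lists was not seen at 1 h (18.4%) and was small at 18 h (16.3%). Leaving out each list in turn gave 8 to 10 sites at 1 h and 7 to 9 at 18 h. For the genotype comparisons it gave 0 to 0 for KO against WT and for the 18 h responses, and 0 to 2 for the 1 h responses, the 2 without WT 1 h replicate 3; all other settings gave 0. With the replicate number as a block, 9 and 9 sites were called after LPS, the same sites, and 0 between the genotypes. Of 35 pairs of lists with the same number, 4 had a correlation of their deviations over 0.1 (range −0.226 to 0.206). With group means of only 2 or 3 lists, this cannot exclude that samples of the same number were handled together.

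Among 25 single-site differences, 1 changed direction, that of the Odc1 promoter at 1 h, which ran from −0.13 without WT 1 h replicate 1-2 to 1.10 without WT 1 h replicate 3. Over the settings other than leaving out a list, 181 values kept their side of the threshold, 16 lost it and 6 gained it; over the lists left out these were 407, 12 and 5. With the cap at 10000, the Acod1 site at −30.9 kb, the Nos2 promoter, the Nos2 sites at +29.8 and +52.8 kb, both Ass1 sites and the Odc1 site at −37.5 kb were no longer called; the score then counts from rank 10000, so weak peaks fall to 0 or near it. Without a cap the Acod1 site at −39.0 kb (0.71) and the Ass1 site at −27.6 kb (0.83) were no longer called at 18 h, nor was the Lgals9 promoter (1.12), and at 1 h the Nos2 site at +52.8 kb (0.93) and the Ass1 site at −23.9 kb (0.88) were not. The cause of these changes was not tested.

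The lists hold peaks rather than counts, so a site under the reach of a list scores 0 whether it is closed or was missed.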
